A study of Homo sapiens with 28 samples.

Results

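The 10 genes described here, SPP1, SPON1, CCN3, THBS1, THBS2, THBS3, TNC, SPARC, SPOCK1 and FBLN1, encode matricellular or related secreted proteins of the extracellular matrix. They were found by gene symbol in GENCODE among the 62703 genes of the 2 raw count tables of a study of TWIST1 in colon cancer cells, and all 10 were present in both tables. They were selected on their RNA values in these same 6 comparisons, so their levels and fold changes are a description and carry no test. The related spondin SPON2 was set beside them in all 8 groups.

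RNA-seq of poly(A) RNA was made with 3 libraries in each of the 8 groups. MDST8, a colon cancer cell line, was sequenced as wild type (WT) and as 5 TWIST1 knockout (KO) clones made with CRISPR-Cas9, called 1.1, 2.2, 3.2, 3.5 and 3.6 after the library names, of which the last 3 share the clone label TG3. Each clone descends from a single cell, so an effect of the knockout and one of clonal origin cannot be told apart within 1 clone, and the labels do not tie a guide to a clone. LoVo, a second colon cancer cell line, was sequenced with a TWIST1 shRNA (knockdown, KD) or an shRNA control. TWIST1 ChIP-seq, which recovers DNA bound by the TWIST1 protein with an antibody, was made once in wild-type cells of each line with an input, and each line has 1 peak list without replicates.

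Matricellular proteins are secreted into the matrix but do not build its scaffold. They bind cell surface receptors, mainly integrins, CD44 and CD36, as well as growth factors and structural matrix proteins, and so tune adhesion, migration and matrix assembly. They are low in most resting adult tissues and are known to rise in wounds and in tumour stroma. TWIST1 is a basic helix-loop-helix transcription factor that binds the short DNA motif CANNTG (the E-box) and is known for its part in epithelial-mesenchymal transition.

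Levels are CPM, counts relative to the library total, corrected by TMM (a between-library scaling), within each cell line. Total counts were 17252883 to 22217009 per library in MDST8 and 16567606 to 20889529 in LoVo, so that 3 counts, taken as the floor, stood at 0.135 to 0.181 RPM (reads on the same scale before TMM). TWIST1 RNA, the targeted gene, was at 46.2 ± 6.08 CPM in WT and between 29.4 ± 1.07 (clone 2.2) and 53.6 ± 3.5 (clone 3.2) in the clones (SD, n = 3 each). A frameshift need not lower RNA, so these levels do not check the knockout labels. In LoVo, TWIST1 counts went against the labels: they were 0, 0 and 0 in the control libraries and 73, 89 and 93 in the libraries whose label is TWIST1 shRNA (the shTWIST1-labelled libraries), at least 90.1-fold higher there against a floor of 3 counts over the control group. Every LoVo direction given here is therefore that of the labels alone. The shTWIST1-labelled library 1 also stood apart, with 10.9% of its counts on mitochondrial genes against 5.47% and 6.24% in its group mates and 3.49 to 3.96% in the control, and the LoVo values are given with and without it.

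The lines were checked against their markers. Of 8 colorectal epithelial genes, 8 were above 1 CPM in LoVo but only KRT8 and KRT18 in MDST8 WT, where EPCAM was at 0.0340 CPM and CDH1 and CDX2 at 0, while VIM was at 3501 CPM. In MDST8 the summed level of 5 fibroblast genes moved between groups, from 626 to 639 CPM in WT to 1155 to 1325 in clone 1.1 and 317 to 344 in clone 3.6, nearly all of it COL1A1, with COL1A2 below 1 CPM in each group. In LoVo the epithelial sum was 7913 to 8129 CPM in the control and 4583 to 5166 in the shTWIST1-labelled libraries, and the sum of 3 mesothelial genes was 12 to 16.2 and 180 to 202, mostly MSLN. The fibroblast sum was 4.16 to 5.96 and 53.6 to 80.1 CPM, mostly COL1A1, with DCN at 0 in both groups. In the control and then the shTWIST1-labelled libraries, PDGFRB was at 1.597 and 0.668 CPM and LUM at 0.316 and 0, against their sum. UPK3B was at 2.61 and 1.17 CPM, against the mesothelial sum, and CALB2 at 1.001 and 39.1, with it. KRT19, unlike the other epithelial genes, was higher by label, at 639 and 869 CPM. The sum of 4 mesenchymal genes was lower by label, at 172 to 178 and 42.4 to 47.9 CPM. The part of these markers in the values below was not tested, and in bulk RNA a change in the share of cells cannot be told apart from a change of RNA per cell.

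Levels in the lines are set side by side, with no order drawn, since the LoVo labels are in doubt. Per kilobase of exon, in MDST8 WT and then the LoVo control, SPARC was at 137 and 7.95 CPM per kb, SPOCK1 at 43.8 and 1.34, TNC at 32.5 and 0.139, THBS1 at 100 and 34.8, CCN3 at 11.3 and 0.247, and FBLN1 at 1.53 and 0.0227. SPON1 was at 0.0807 in MDST8 and 20.1 in LoVo. THBS3 (1.56 and 0.826) and SPON2 (1.25 and 0.200) were low in both. With the shTWIST1-labelled libraries in place of the control, FBLN1 (6.97) and THBS3 (1.89) stood above MDST8 WT in LoVo. The lines were scaled separately, and a joint scaling changed levels by a factor of 0.982 to 1.031. The lines were not compared by a test.

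The differences were fitted with edgeR across all genes of a line that passed a filter on low counts, 13706 in MDST8 and 14270 in LoVo. A gene was called when its absolute log2 fold change was above 0.58 and its adjusted p below 0.05. The filter kept 8 of the 10 genes in each line, and a gene kept only for its high group had to differ. In LoVo FBLN1 (0.166) and CCN3 (0.646) were below 1 CPM in the control, and SPOCK1 (0.737) and TNC (0.749) in the shTWIST1-labelled libraries. These genes passed through their higher group, so their LoVo calls and fold changes depend on the filter and are a description. SPON1 and THBS2 were left out in MDST8, and SPP1 and THBS2 in LoVo. The 5 clone comparisons share the 3 WT libraries.

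The 8 genes kept were mostly called in every comparison, in both directions. In clone 1.1, 3 were called higher and 3 lower, where 19.5% of all genes tested were called, 12% higher and 7.49% lower. In clone 2.2, 5 were higher and 2 lower, beside 14.7% of all genes called, 8.05% higher and 6.64% lower. In clone 3.2, 3 were higher and 2 lower, beside 17% called, 10.9% higher and 6.09% lower. Clone 3.5 had 3 higher and 3 lower, beside 18.5% called, 11.2% higher and 7.25% lower. Clone 3.6 had 4 higher and 2 lower, beside 27% called, 15.3% higher and 11.7% lower. In LoVo, 3 were higher and 5 lower in the shTWIST1-labelled libraries, beside 52.7% called, 26.6% higher and 26.1% lower. The median log2 fold change of the kept members was 0.21, 0.67, 0.30, 0.23 and 0.27 in clones 1.1, 2.2, 3.2, 3.5 and 3.6 and -1.90 in LoVo, against medians over all genes between -0.01 and 0.01. With limma on log2 counts without scaling, the share of higher genes among all called moved from 64.1% to 74.3% in clone 3.2, from 56.7% to 71.0% in clone 3.6 and, the other way, from 60.8% to 51.3% in clone 3.5. Nothing is read from these counts, since the members were selected on these values.

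**Figure D1:**
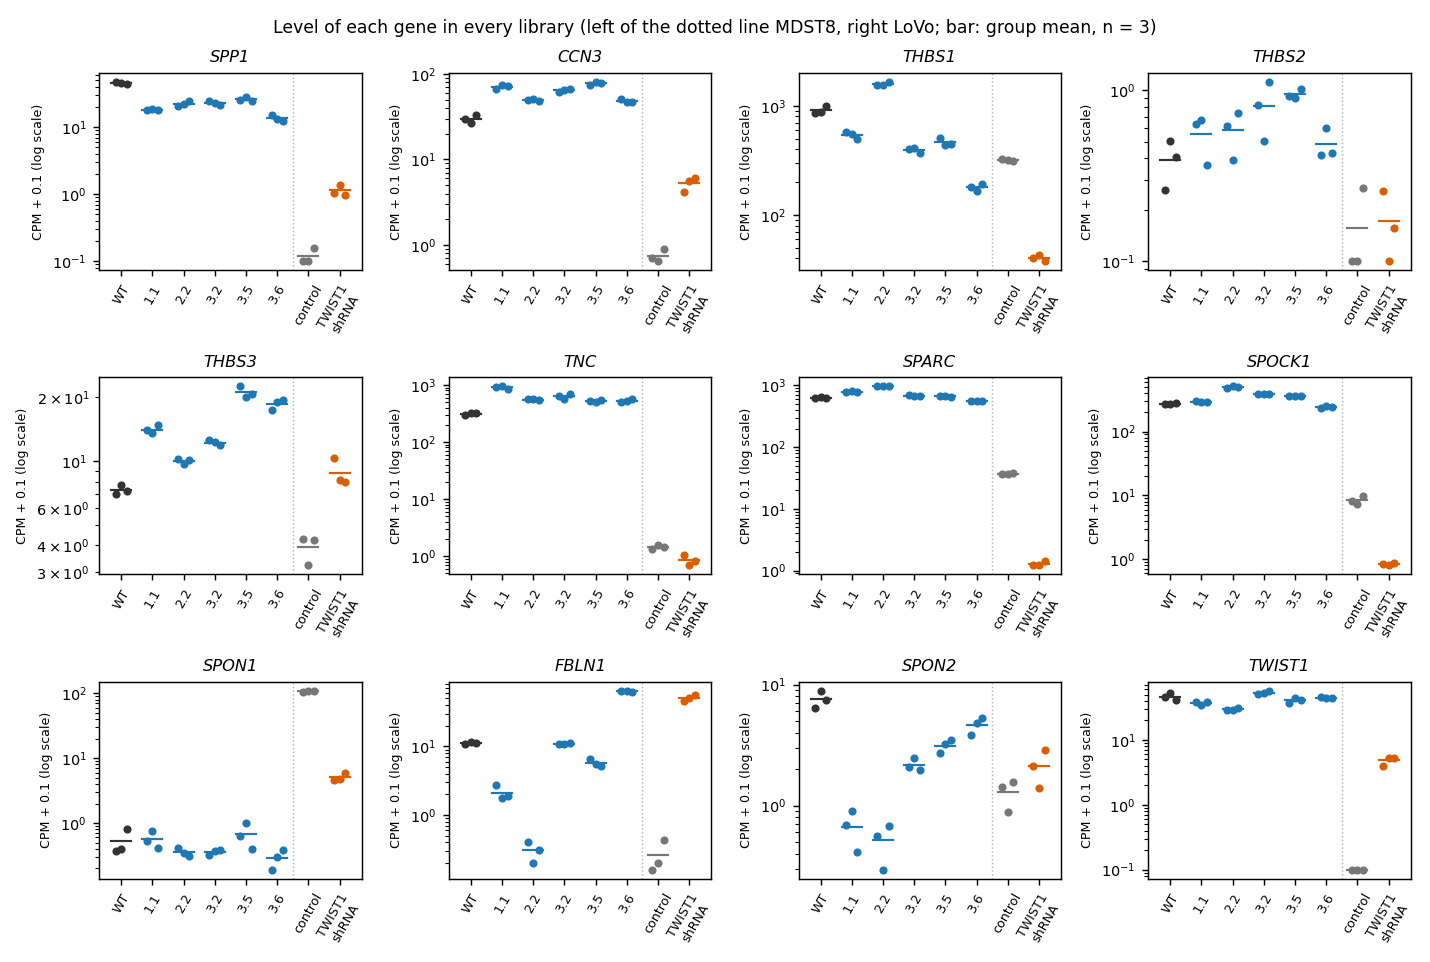
RNA level of the 10 matricellular genes, SPON2 and TWIST1 in each of the 24 libraries, as CPM plus 0.1 on a log axis. Points are libraries and bars are means of 3. SPP1 is lower and CCN3 higher in each of the 5 clones than in each WT library, and FBLN1 lies both above and below WT depending on the clone.

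SPP1 encodes osteopontin, a secreted phosphoprotein of the SIBLING family that binds integrins and CD44. Its gene lies on chromosome 4 of hg38 (87975667 to 87983532, plus strand). Counts in WT were 875, 889 and 856, or 45.2 ± 1.57 CPM. They were 335, 399 and 340 in clone 1.1, and 396, 445 and 469 in clone 2.2. All of these clone libraries lay below all of WT. The counts of clone 3.2 were 439, 505 and 448, and those of clone 3.5 were 437, 524 and 489. The lowest were those of clone 3.6, at 335, 260 and 263, or 13.5 ± 1.57 CPM. Fitted log2 fold changes were -1.31 ± 0.07 in clone 1.1, -1.02 ± 0.07 in clone 2.2, -0.99 ± 0.07 in clone 3.2, -0.79 ± 0.07 in clone 3.5 and -1.74 ± 0.08 in clone 3.6 (SE). SPP1 was thus 1.73-fold to 3.34-fold lower than in WT, with no overlap in any clone. Among the clones, levels fell in the order 3.5, 3.2, 2.2, 1.1, 3.6, clone 2.2 overlapping both 3.2 and, by its highest library (24.9 against 24.8 CPM), 3.5.

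LoVo held little SPP1. Counts were 0, 0 and 1 in the control and 18, 22 and 16 in the shTWIST1-labelled libraries. By label this was the reverse of the clones' direction, and the LoVo labels are in doubt. The ratio of the summed counts was 59.4 with a 95% counting interval of 10.2 to 2386, which covers counting error only. Per kilobase of exon, SPP1 stood at 6.24 CPM per kb in MDST8 WT and 0.143 in the shTWIST1-labelled LoVo libraries.

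CCN3, a member of the CCN family of secreted cysteine-rich proteins, went the other way in MDST8. Its counts in WT were 551, 527 and 640, or 29.6 ± 2.90 CPM. They were 1264, 1568 and 1376 in clone 1.1 and 950, 1043 and 916 in clone 2.2. Clone 3.2 had 1116, 1435 and 1370. These 3 clones lay wholly above WT. Clone 3.5 had the most, 1276, 1511 and 1537 counts, or 77.8 ± 2.47 CPM, and clone 3.6 had 1109, 938 and 995, or 48.0 ± 2.27 CPM. The log2 fold change was 1.27, 0.74, 1.11, 1.39 and 0.70 in clones 1.1, 2.2, 3.2, 3.5 and 3.6, each ± 0.06 (SE). CCN3 was 1.62-fold to 2.62-fold above WT, the 5 clones did not overlap WT, and only clones 2.2 and 3.6 overlapped each other as neighbours in the order of levels. In LoVo, counts were 10, 11 and 14 in the control and 78, 94 and 108 in the shTWIST1-labelled libraries, a log2 fold change of 3.00 ± 0.28 that was 3.18 without library 1. Exons of another gene on the opposite strand cover 7.80% of the CCN3 exon length.

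The genes most like SPP1 and CCN3 over the 18 MDST8 libraries were named by Pearson correlation of log2(CPM + 0.5) among the 13706 genes kept. For SPP1 they were LDHA (r = 0.98), EI24 (0.98) and LAMP1 (0.97), and 175 genes had r above 0.9. For CCN3 they were KDM4B (0.96), ARHGAP15 (0.96) and VPS36 (0.95), among 50 genes above 0.9. The 18 libraries fall into 6 groups, so these values mostly describe the group means.

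The thrombospondins measured here are matrix glycoproteins that bind calcium. THBS1 is trimeric, binds CD36 and CD47 and activates latent TGF-beta. Its level in WT was 860, 884 and 1002 CPM. Clone 2.2 stood above WT, at 1564, 1542 and 1649 CPM, while clone 1.1 stood below it, at 581, 553 and 500. Clone 3.2 was at 401, 408 and 373 CPM, clone 3.5 at 506, 435 and 448, and clone 3.6 at 181, 167 and 193. The log2 fold change was thus 0.79 ± 0.05 in clone 2.2 but -0.75 ± 0.06, -1.22 ± 0.06, -0.98 ± 0.06 and -2.34 ± 0.06 in clones 1.1, 3.2, 3.5 and 3.6 (SE). THBS1 was 1.73-fold above WT in 1 clone and 1.68-fold to 5.07-fold below it in the other 4, without overlap. In LoVo it was at 326, 318 and 311 CPM in the control and 40.2, 43.4 and 37.6 in the shTWIST1-labelled libraries, a log2 fold change of -2.98 ± 0.07, or -2.94 without library 1. Exons of THBS1-AS1 and FSIP1 on the other strand cover 4.49% and 4.89% of its exon length.

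THBS3, a pentameric thrombospondin, was low in both lines. It was at 7.23 ± 0.379 CPM in WT and at 14 ± 0.607, 9.89 ± 0.238, 12.1 ± 0.335, 21 ± 1.28 and 18.5 ± 1.02 in clones 1.1, 2.2, 3.2, 3.5 and 3.6 (SD, n = 3). All 5 clones lay above WT, and the log2 fold change of 0.45 ± 0.10 in clone 2.2 was the only one under the threshold, the others running from 0.74 ± 0.09 (clone 3.2) to 1.54 ± 0.09 (clone 3.5). In LoVo its counts were 69, 63 and 74 in the control and 196, 138 and 142 in the shTWIST1-labelled libraries, a log2 fold change of 1.2 ± 0.18 that was 1.1 without library 1. Exons of THBS3-AS1 and MTX1 on the other strand cover 25.9% and 3.16% of the THBS3 exon length, and counting did not use strand, so the THBS3 values are uncertain.

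THBS2, a trimeric relative of THBS1, was near the floor. It had 3, 8 and 6 counts in WT and 5 to 21 counts per library in the clones, with only clone 3.5 (14, 15 and 18) wholly above WT. LoVo libraries had 0 to 3 counts. THBS2-AS1 covers 31.2% of its exon length.

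TNC encodes tenascin-C, a matrix glycoprotein that modulates cell adhesion to fibronectin. Levels in WT were 293, 321 and 322 CPM. They were 926, 941 and 859 in clone 1.1, 565, 558 and 537 in clone 2.2 and 644, 560 and 683 in clone 3.2. Clone 3.5 was at 516, 506 and 553 CPM and clone 3.6 at 507, 526 and 562. Each of the 15 clone libraries lay above WT, with clone 1.1 highest and the other 4 clones overlapping in a chain. The log2 fold change was 1.54, 0.83, 1.01, 0.75 and 0.77 in clones 1.1, 2.2, 3.2, 3.5 and 3.6, each ± 0.05 (SE). LoVo had 20, 29 and 24 counts in the control and 18, 10 and 13 in the shTWIST1-labelled libraries. That log2 fold change of -0.82 ± 0.33, or -0.99 without library 1, was no longer called by DESeq2, without the filter on low counts or without library 2 or 3 of that group.

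SPARC and SPOCK1 encode SPARC-family proteins, SPARC being a collagen-binding glycoprotein and SPOCK1 a testican proteoglycan. SPARC was at 636 ± 9.09 CPM in WT, 787 ± 14.8 in clone 1.1, 962 ± 1.49 in clone 2.2, 677 ± 16.4 in clone 3.2, 661 ± 13.4 in clone 3.5 and 554 ± 7.82 in clone 3.6 (SD, n = 3). Only clone 2.2 was called, with a log2 fold change of 0.60 ± 0.03 that lay just over the threshold, and clones 3.2 and 3.5 overlapped. SPOCK1 was at 272 ± 5.02 CPM in WT and 294 ± 4.41, 496 ± 12.8, 387 ± 3.92, 362 ± 3.94 and 243 ± 4.66 in clones 1.1, 2.2, 3.2, 3.5 and 3.6. Its log2 fold change was 0.87 ± 0.03 in clone 2.2, the only call, and -0.16 ± 0.03 in clone 3.6. The 2 genes thus had clones 2.2 and 3.6 at the top and bottom alike, and both lay below WT in clone 3.6 alone.

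In LoVo both SPARC genes were far lower in the shTWIST1-labelled libraries. SPARC had 610, 729 and 669 counts in the control and 22, 19 and 24 in those libraries, a log2 fold change of -4.94 ± 0.13. SPOCK1 had 135, 146 and 170 counts and then 14, 12 and 14, a log2 fold change of -3.48 ± 0.24. Without library 1 these were -4.87 and -3.45.

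SPON1, or F-spondin, is a secreted adhesion protein that passed the filter in LoVo only. It had 1720, 2221 and 1904 counts in the LoVo control and 87, 79 and 104 in the shTWIST1-labelled libraries. These did not overlap, and the log2 fold change was -4.43 ± 0.09, or -4.33 without library 1. MDST8 libraries had 2 to 17 SPON1 counts, and no clone was separate from WT.

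FBLN1, or fibulin-1, a calcium-binding glycoprotein of basement membranes and elastic fibres, spread most among the clones. Counts were 198, 228 and 219 in WT and 193, 242 and 229 in clone 3.2, which overlapped it. They were 49, 36 and 34 in clone 1.1, 6, 2 and 4 in clone 2.2, and 110, 103 and 102 in clone 3.5. Clone 3.6 had 1383, 1300 and 1329. The 5 clones therefore ranged from 52.8-fold below WT (clone 2.2) to 5.70-fold above it (clone 3.6). Its log2 fold change was -2.46 ± 0.13 in clone 1.1, -5.72 ± 0.21 in clone 2.2, -0.03 ± 0.10 in clone 3.2, -0.97 ± 0.11 in clone 3.5 and 2.51 ± 0.08 in clone 3.6 (SE). Clones 3.2, 3.5 and 3.6, which share the label TG3, were on both sides of WT. In LoVo the counts were 1, 2 and 6 in the control and 865, 876 and 1006 in the shTWIST1-labelled libraries, a count ratio of 324 with a 95% counting interval of 170 to 708. The fitted log2 fold change was 8.20 ± 0.22, 8.31 without library 1 and 9.15 without control C.

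**Figure D2:**
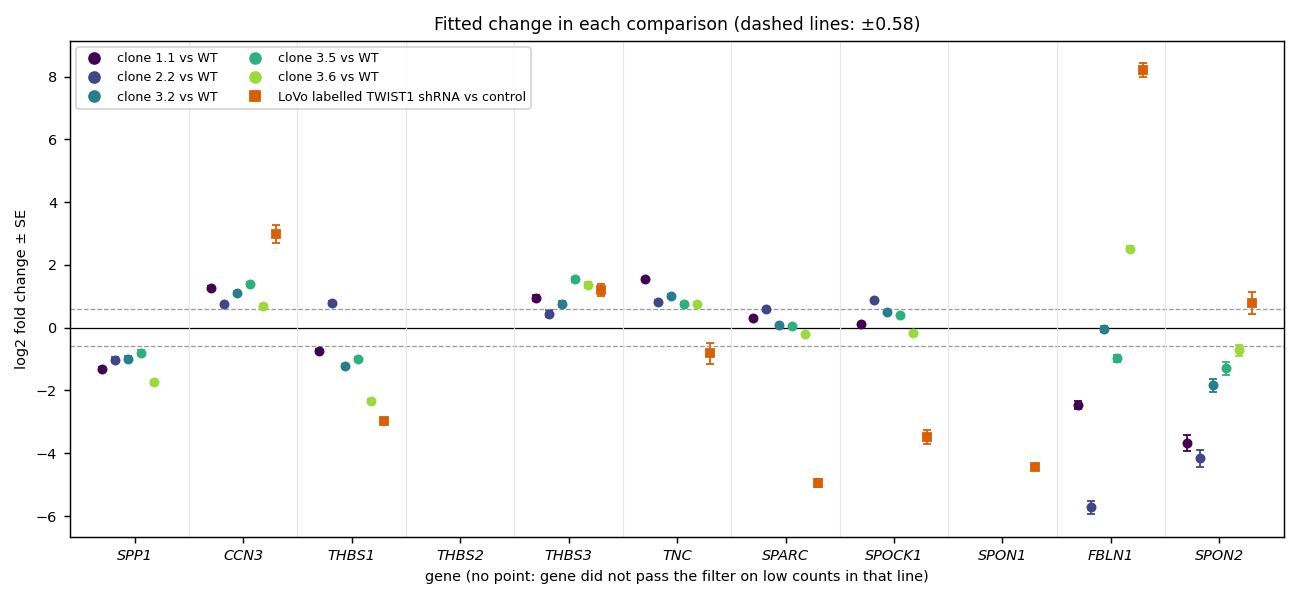
Fitted log2 fold change with its standard error for each gene that passed the filter, for the 5 clones against WT and for shTWIST1-labelled LoVo libraries against control. Dashed lines mark ±0.58. FBLN1 runs from -5.72 to 8.20, whereas CCN3 and THBS3 lie above 0 in all 6 comparisons. The LoVo direction is by label only, and the labels go against the TWIST1 counts. The THBS3 values are uncertain because of antisense exons.

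SPON2, or mindin, is the second spondin and a ligand of integrins. It fell in each clone: counts were 117, 173 and 143 in WT, 11, 17 and 6 in clone 1.1, 9, 4 and 11 in clone 2.2 and 36, 53 and 39 in clone 3.2. They were 44, 59 and 66 in clone 3.5 and 82, 94 and 110 in clone 3.6. No clone library reached a WT library. The log2 fold change was -3.68 ± 0.26, -4.17 ± 0.27, -1.83 ± 0.20, -1.30 ± 0.20 and -0.72 ± 0.18 in clones 1.1, 2.2, 3.2, 3.5 and 3.6 (SE). The call in clone 3.6 was lost without WT B, when the value was -0.57. In LoVo the groups overlapped, with 22, 16 and 26 counts in the control and 39, 22 and 50 in the shTWIST1-labelled libraries, and the log2 fold change of 0.78 ± 0.34 was no longer called by DESeq2, without the filter on low counts or without any 1 of the 3 control libraries or library 3 of the other group. Without library 1 of that group it was 0.81.

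SPP1 was the only 1 of the 10 genes that was lower than WT in all 5 clones, as SPON2 was, but the clones were ranked differently. SPP1 was lowest in clone 3.6, where SPON2 was nearest to WT. Per kilobase of exon, WT held 6.24 CPM per kb of SPP1 against 1.25 of SPON2, with THBS1 at 100 and SPARC at 137. Over the 6 MDST8 group means of log2(CPM + 0.5), which share the WT and clone libraries, Pearson's r with SPON2 was 0.40 for SPP1 (Spearman's rho 0.37), and it turned to -0.26 without WT. It was 0.81 for FBLN1 (rho 0.89) but 0.27 without clones 1.1 and 2.2, the 2 groups farthest from the median of SPON2, and 0.91 without WT. SPARC had r = -0.88 (rho -0.94), or -0.47 without those 2 groups and -0.95 without WT. TNC had r = -0.76 (rho -0.77), or -0.92 without them and -0.56 without WT. THBS1 had r = -0.41 (rho -0.37), which turned to 0.37 without those 2 groups and was -0.86 without WT. These values describe 6 points and were not tested.

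**Figure D3:**
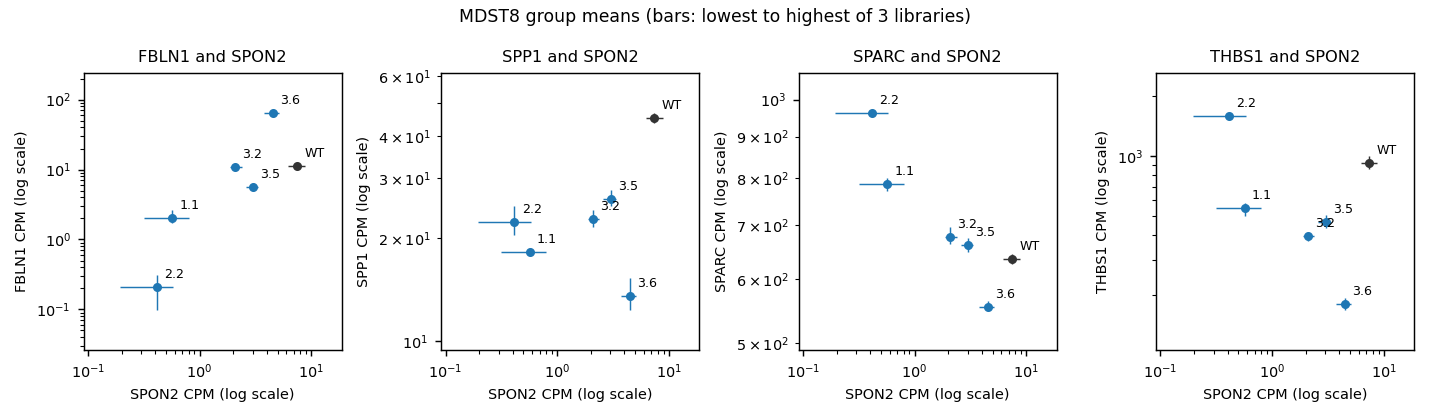
Group means of FBLN1, SPP1, SPARC and THBS1 against SPON2 in the 6 MDST8 groups, both in CPM on log axes. Bars run from the lowest to the highest of 3 libraries. SPP1 sits below WT in every clone, lowest in clone 3.6, where SPON2 is the highest of the clones.

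The TWIST1 ChIP-seq peaks near these genes were weak. The lists hold 338877 peaks in MDST8 and 333621 in LoVo at p up to 0.05, and 0.317% and 0.465% of them had q up to 0.05. A peak lay within 3000 bp of the 5' end of 7 of the 10 genes in MDST8 (SPP1, CCN3, THBS2, THBS3, TNC, SPARC and SPOCK1), beside 63.1% of all 62686 genes with a symbol, and of 4 in LoVo (SPON1, CCN3, THBS2 and SPOCK1), beside 55.7%. SPON2 had a peak in both lines. None of these peaks had q up to 0.05, and THBS1 and FBLN1 had no peak there in either line. The LoVo control RNA libraries had no TWIST1 counts, and whether the LoVo peaks mark TWIST1 protein was not tested here. THBS3 had 5 peaks in MDST8, the strongest 3.18-fold enriched, with its summit in an exon 70 bp downstream of the 5' end. SPP1 had 1 peak in MDST8, 2.74-fold enriched, with its summit 549 bp upstream. SPON2 had 3 in MDST8, 2 of them 3.2-fold enriched. Inside the gene bodies, 1 of 26 peaks in FBLN1 (MDST8) and 1 of 17 in TNC (LoVo) had q below 0.05.

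**Figure D4:**
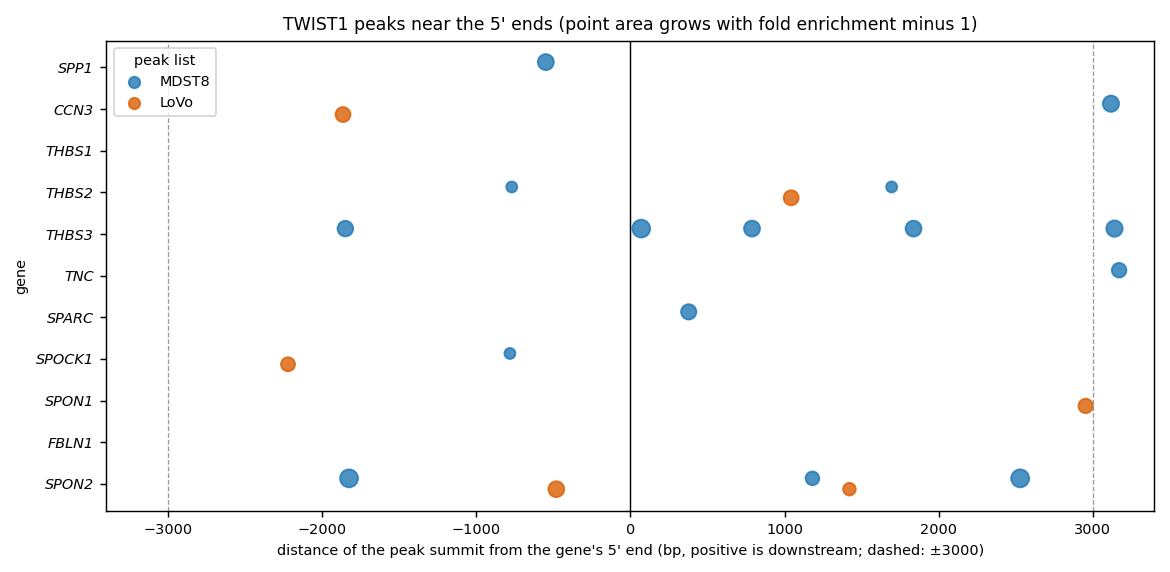
Distance in bp of each TWIST1 peak summit from the 5' end of the gene, for peaks within 3000 bp in MDST8 and LoVo, with point area growing with fold enrichment. THBS3 carries 5 peaks in MDST8 and none in LoVo, and SPON2 carries peaks in both lines.

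Stretches of these promoters and peaks are shown because they hold, or do not hold, the E-box of TWIST1. Capitals mark CANNTG, which reads the same on both strands as a pattern and includes CATCTG and CAGATG. The promoters come from RefSeq on GRCh38 (250 bases before to 50 after each gene's start) and the summit windows, 101 bases long, from hg38, all on the gene's strand. The first 3 are promoter stretches before the first exon, at chr9:115118208-115118407 (minus strand) for TNC, chr15:39580829-39581078 (plus strand) for THBS1 and chr22:45502633-45502831 (plus strand, in an intron of a longer FBLN1 transcript in GENCODE). The last 3 are summit windows, at chr1:155207164-155207264 (minus strand) in a THBS3 intron in MDST8, chr5:137599111-137599211 (minus strand) upstream of SPOCK1 in MDST8 and chr4:1209393-1209493 (minus strand) upstream of SPON2 in LoVo. The SPON2 windows in MDST8, which are not shown, hold no CANNTG.
TNC promoter: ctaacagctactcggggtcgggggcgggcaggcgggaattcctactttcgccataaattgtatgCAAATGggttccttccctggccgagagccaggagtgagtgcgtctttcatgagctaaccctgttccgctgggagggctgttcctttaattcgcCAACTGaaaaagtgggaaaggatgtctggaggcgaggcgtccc
THBS1 promoter: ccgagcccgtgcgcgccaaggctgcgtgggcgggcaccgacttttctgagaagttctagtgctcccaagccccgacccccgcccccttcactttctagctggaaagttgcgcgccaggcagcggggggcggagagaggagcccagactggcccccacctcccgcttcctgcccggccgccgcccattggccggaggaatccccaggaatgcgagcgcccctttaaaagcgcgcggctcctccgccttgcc
FBLN1 promoter: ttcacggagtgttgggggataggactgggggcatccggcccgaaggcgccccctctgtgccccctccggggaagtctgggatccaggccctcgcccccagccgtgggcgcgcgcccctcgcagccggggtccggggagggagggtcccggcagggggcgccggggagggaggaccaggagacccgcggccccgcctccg
THBS3 summit window: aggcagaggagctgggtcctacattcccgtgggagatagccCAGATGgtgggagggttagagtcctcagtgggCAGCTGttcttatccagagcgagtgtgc
SPOCK1 summit window: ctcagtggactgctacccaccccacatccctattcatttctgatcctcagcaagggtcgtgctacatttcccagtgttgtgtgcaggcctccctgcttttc
SPON2 summit window: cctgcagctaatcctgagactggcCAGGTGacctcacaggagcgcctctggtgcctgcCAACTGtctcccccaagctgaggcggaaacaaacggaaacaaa

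The RefSeq table held 7 of the 10 promoters, those of SPP1, THBS1, THBS2, THBS3, TNC, SPARC and FBLN1, and that of SPON2. CANNTG was in 4 of the 7 (SPP1, THBS2, TNC and SPARC), against 68.7% of 35116 RefSeq promoters of that length. CATCTG or CAGATG was in 1, that of SPARC, against 14.7%. TNC held 2 E-boxes and THBS1, THBS3, FBLN1 and SPON2 none. Among all 101-base summit windows, CANNTG was in 45.1% in MDST8 and 44.9% in LoVo, and CATCTG or CAGATG in 7.46% and 7.37%. Of the 5 THBS3 windows in MDST8, 4 held CANNTG, and the one shown was the only window of the 10 genes with CAGATG. The other MDST8 windows of the 10 genes, those of SPP1, CCN3, THBS2, TNC, SPARC and SPOCK1, held no CANNTG. In LoVo the windows of THBS2 and SPOCK1 held it, and those of SPON1 and CCN3 did not. A match is a description of the letters and no match draws nothing about the factor.

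Of 28 other genes of the same families, which were listed by family, 9 passed the filter in MDST8 and 8 in LoVo. In the edgeR test, 3 rose and 4 fell in clone 1.1, 2 and 2 in clone 2.2, 3 and 4 in clone 3.2, 1 and 4 in clone 3.5 and 1 and 4 in clone 3.6, and the shTWIST1-labelled libraries in LoVo had 4 higher and 2 lower. These calls are 77.8%, 44.4%, 77.8%, 55.6% and 55.6% of the genes kept in clones 1.1, 2.2, 3.2, 3.5 and 3.6 and 75% in LoVo, beside 19.5%, 14.7%, 17%, 18.5%, 27% and 52.7% of all genes. The shares include FBLN5 in each clone and SPOCK3 and TNXB in LoVo, which passed the filter only through their high group. Nothing is therefore read from the shares. Their median log2 fold change was -0.42, 0.01, -0.25, -0.55 and -0.34 in the clones, in that order, and 0.86 in LoVo. The family genes and receptors named below were picked by their calls in these same comparisons, so their p-values are a description. Among the named genes were 2 fibulins and a CCN gene. FBLN5, a fibulin of elastic fibres, fell in 5 of 5 clones, from 8.97 ± 0.0574 CPM in WT to between 0.194 ± 0.168 (clone 3.6) and 0.882 ± 0.158 (clone 3.5). Its log2 fold changes were -5.31 ± 0.32 in clone 1.1, -3.54 ± 0.26 in 2.2, -3.77 ± 0.26 in 3.2, -3.34 ± 0.25 in 3.5 and -5.52 ± 0.32 in 3.6. FBLN5 passed the filter only through its WT level, so it had to differ and these values are a description. In clone 3.6, FBLN5 was thus far below WT and FBLN1 above it. HMCN1, a giant fibulin-like protein, rose in 4 clones by log2 1.53 to 2.16 and had 0.38 ± 0.12 in clone 3.6.

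CCN1, a CCN protein that binds integrins, fell in 4 of 5 clones while CCN3 was higher. It was at 223 ± 4.21 CPM in WT and 90.0 ± 5.79, 224 ± 4.45, 61.1 ± 1.41, 143 ± 6.88 and 45.8 ± 2.71 in clones 1.1, 2.2, 3.2, 3.5 and 3.6. The log2 fold change in clone 3.6 was -2.28 ± 0.05 (edgeR adjusted p = 9.4e-30), and in clone 2.2 0.01 ± 0.04 (adjusted p = 0.90). In LoVo, labelled TWIST1 shRNA against control, it was 1.94 ± 0.07 (adjusted p = 4.8e-13). CCN2, named after its values were seen, also fell in the clones other than 2.2, by log2 1.26 to 1.91. TGFBI, a periostin relative, rose in clones 1.1 and 3.2 (log2 0.74 and 0.75), and in LoVo it was lower in the shTWIST1-labelled libraries, at log2 -4.27 ± 0.08 (edgeR adjusted p = 7.4e-17). SPOCK3, a testican, fell in clones 2.2 and 3.5 (log2 -1.88 and -1.97). In LoVo SPOCK3 had 178 counts in the shTWIST1-labelled libraries and 0 in the control, at least 62.9-fold higher against a floor of 3 counts over the control group. TNXB had log2 3.41 ± 0.30 in LoVo, and shares reads with its near-identical copy TNXA, so its value is uncertain. TNXB and SPOCK3 passed the LoVo filter only through the shTWIST1-labelled libraries, so they had to differ there.

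**Figure D5:**
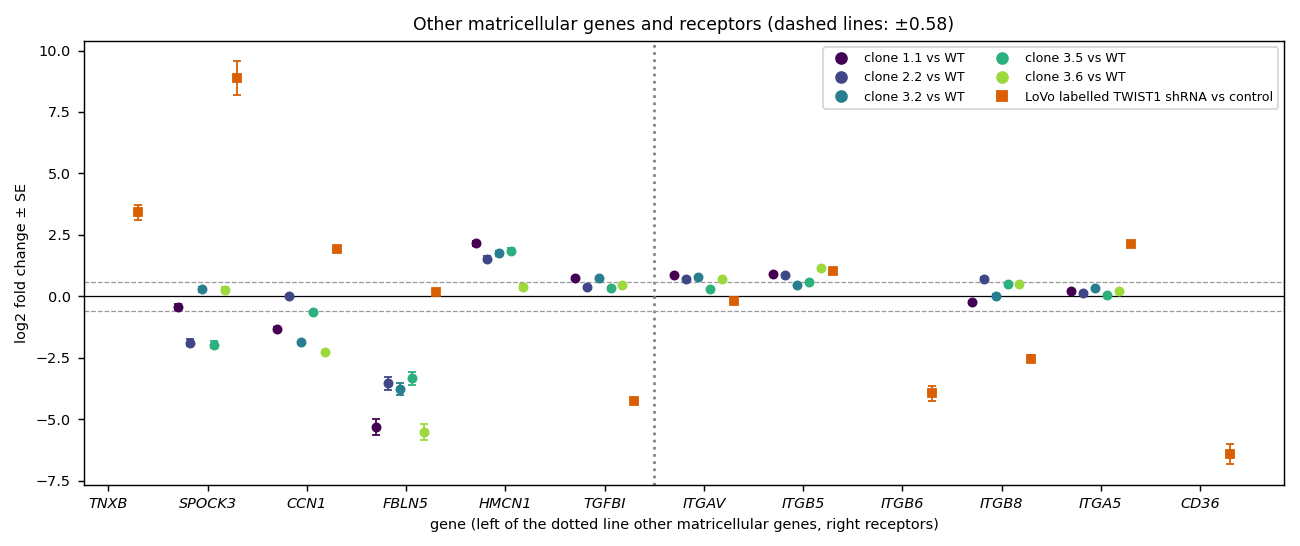
Fitted log2 fold change with its standard error of 6 other matricellular genes and 6 receptor genes in the 6 comparisons. FBLN5 lies below -3 in all 5 clones, and ITGAV and ITGB5 lie above 0 in all 5. The LoVo point of SPOCK3 rests on a control group of 0 counts and so depends on the prior count.

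Of 15 receptor genes, 11 passed the filter in MDST8 and 12 in LoVo. In the edgeR test, 4, 4, 2, 1 and 3 receptor genes rose in clones 1.1, 2.2, 3.2, 3.5 and 3.6 and 0 fell, with 1 or 2 receptors below WT per clone at an unadjusted edgeR p under 0.05. DESeq2 and limma also called 0 lower, but limma called 0 higher in clone 3.5 and 5 in clone 3.6. These calls are 36.4%, 36.4%, 18.2%, 9.09% and 27.3% of the receptors kept, beside 19.5%, 14.7%, 17%, 18.5% and 27% of all genes, so that in clones 3.2 and 3.6 the share was near that of all genes and in clone 3.5 it was below it. In LoVo 5 were higher and 4 lower in the shTWIST1-labelled libraries, 75% of those kept beside 52.7% of all genes. That share includes CD36 and ITGB6, which passed the filter only through the control, so nothing is read from it. The integrin subunit ITGAV, a partner of ITGB5 in a receptor of osteopontin, was at 258 ± 8.56 CPM in WT and rose in clones 1.1, 2.2, 3.2 and 3.6 by log2 0.71 to 0.86. ITGB5 was at 270 ± 20.8 CPM in WT and rose in 1.1, 2.2, 3.5 and 3.6 by log2 0.59 to 1.15, the last with edgeR adjusted p = 7.6e-23. ITGB5 was the 1 call in clone 3.5, and it was lost without WT C or without clone 3.5 B. In LoVo, ITGA5, the fibronectin receptor alpha subunit, was higher in the shTWIST1-labelled libraries by log2 2.13 ± 0.07 (adjusted p = 8.6e-14), ITGB5 was higher by 1.02 ± 0.08, and ITGB6 and ITGB8 had log2 -3.95 ± 0.29 and -2.54 ± 0.14. CD36, a thrombospondin receptor, had 376 counts in the LoVo control and 4 in the shTWIST1-labelled libraries, log2 -6.42 ± 0.41. CD36 and ITGB6 passed the LoVo filter only through the control, so they had to differ there. Without library 1 the calls over the other family genes were 3 higher and 2 lower, and those over the receptors 5 higher and 4 lower. Over all genes 7414 were then called, against 7520 with it.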

How the data were processed

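RNA-seq of MDST8 (18 libraries) and LoVo (6) and TWIST1 ChIP-seq of both lines were used. Per the labels and the submitters' processing notes, the tools were Trim Galore 0.6.6, HISAT2 2.1.0, featureCounts 2.0.0, Bowtie2 2.4.5, SAMtools 1.6 and MACS2 2.2.7.1, with hg38. The authors deposited raw counts per gene, 1 table for each line, counted without use of strand, so antisense exons can share or lose reads. They also deposited 1 peak list for each line, in which fold enrichment (a ratio), −log10 p and −log10 q-value, and a score were given by MACS2, and the peaks were used as deposited. No column of values was left without a sample (0 columns).

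Genes with a geometric mean RPM of at least 1 in a line were kept (the mean of log RPM + 1, minus 1). Counts were tested with edgeR 4.0.16 (quasi-likelihood, TMM, R 4.3.3) in 1 fit for each line, with Benjamini-Hochberg adjustment over all genes kept, and the test was checked on simulated counts. Standard errors came from the fold change and the F statistic. Alternatives were DESeq2 1.42.0, limma 3.58.1, RLE factors, no filter, other offsets, left-out libraries and a replicate block. CPM per kb used the deposited exon length. Peaks were assigned to a gene within 3000 bp of its GENCODE 5' end. Nothing says that libraries of a group came from separate cultures, so p-values measure the spread between these libraries, which may be technical. The genes and lists were chosen with earlier results of these data known. Of the other lists, genes called one way in at least 4 of the 5 clones, or called in LoVo with an absolute log2 fold change above 2, were named, at most 6 of each list by mean absolute fold change.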

Additional observations from a re-analysis of the deposited data

Results flagged for a closer look

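These values stood out because the clones of 1 line lay on both sides of WT, or because LoVo and MDST8 moved apart by label. The differences themselves were not tested, and the LoVo labels go against the TWIST1 counts.

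SPP1 lay below WT in all 5 MDST8 clones, while the LoVo libraries labelled TWIST1 shRNA held 1.04 CPM against a control below the floor. TNC lay above WT in all 5 clones, while its level in the LoVo libraries labelled TWIST1 shRNA was 0.562 times that of the control. THBS1 was at 1.73 times the WT level in clone 2.2 and 0.197 times in clone 3.6. FBLN1 was at 5.71 times WT in clone 3.6 and 0.0186 times in clone 2.2. SPARC was at 1.51 times WT in clone 2.2 and 0.872 times in clone 3.6. SPOCK1 was at 1.82 times WT in clone 2.2 and 0.893 times in clone 3.6.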

How the results depend on the processing

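Among the fold changes and counts recomputed under these alternatives, no called value changed sign. The sign of 2 uncalled values near 0 changed, FBLN1 in clone 3.2 (0.04 with limma and 0.01 without WT B) and SPARC in clone 3.5 (-0.01 with limma). The number of members called stayed within 1.5 times in each comparison, at 5 to 7 in the clones and 7 or 8 in LoVo when 1 library was left out. Single calls that changed were SPOCK1 in clone 3.2, called at 0.58 with limma without scaling, SPON2 in clone 3.6, lost at -0.59 with limma, and TNC and SPON2 in LoVo, as given above. With limma without scaling the median of all genes in clone 3.6 was 0.13, against 0.00278 with edgeR. The correlations of SPP1 and THBS1 with SPON2 changed sign when groups were left out, as given above. Without WT, so did those of SPON1 (0.03 to -0.15), THBS2 (-0.22 to 0.26) and THBS3 (-0.03 to 0.78). At p up to 0.001, 2 of the 10 members had a peak near the 5' end in MDST8 (7 in all peaks). In LoVo 1 member did (4 in all peaks). Of all genes with a symbol, 17.9% in MDST8 and 15.95% in LoVo then had such a peak. At q up to 0.05, 0 members had one in either line, beside 0.437% and 0.362% of all genes. Within 1000 bp, 5 members had a peak in MDST8 and 1 in LoVo, beside 37.04% and 28.4% of all genes. Fewer peaks or bases count under these settings, and nothing is read from these member counts. Without the filter 10 of the 28 other family genes were called in LoVo, against 6 of the 8 kept with it. More genes with low counts were then tested, and no share of all genes is set beside it. Nothing is therefore read from that count. The receptors' alternatives were chosen after seeing the data: in clone 3.5, 0 were called with limma or without the filter and 0 to 1 when 1 library was left out, and in clone 3.6, 5 with limma. The causes were not tested. Libraries with the same letter showed no shared deviation (mean correlation -0.01 over 45 pairs), which cannot exclude a pairing by letter. With the letter as a replicate block, 2665, 2006, 2326, 2528 and 3704 genes were called in clones 1.1, 2.2, 3.2, 3.5 and 3.6, against 2670, 2014, 2326, 2535 and 3704 without it. In LoVo no paired analysis was possible because the control libraries carry letters and the others numbers. Depth limits SPON1 and THBS2 in MDST8 and SPP1, THBS2 and TNC in LoVo.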
